A study of Mus musculus with 4 samples.

Results

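The genes described are Eln, which encodes elastin, and 9 genes whose proteins take part in building or crosslinking elastic fibres: Fbln1, Fbln2, Fbln5, Fbn1, Lox, Loxl1, Mfap4, Mfap5 and Emilin1. They were taken by symbol, and all 10 were found among the 31765 genes listed for plaque cells and the 29459 genes listed for ligated carotid cells. The list was chosen with earlier results of these data known, so counts of its genes are descriptions. Elastic fibres give the arterial wall its recoil. Cells secrete elastin as a soluble precursor, fibulins bring it to a scaffold of fibrillin microfibrils, and lysyl oxidases crosslink it there. In arteries vascular smooth muscle cells (VSMCs) are the main source, and most elastin is laid down before adulthood.

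Single-cell RNA-seq (scRNA-seq), in which each RNA molecule carries a unique molecular identifier (UMI), was available for 4 mouse libraries, 1 per genotype in each of 2 experiments, all on the C57Bl/6 background. Plaque cells came from the aorta and carotid arteries of Myh11-CreERt2/Confetti/ApoE-/- mice (1502 cells) and of the same line with a Sm22a-Trf2T188A transgene (Trf2T188A/ApoE-/-, 929 cells), after tamoxifen from 6 weeks of age and 14 weeks of high fat diet. Both plaque groups therefore lacked ApoE and carried the Confetti reporter, which tamoxifen switches on in Myh11-expressing cells, and the authors had kept clusters with that reporter. Ligated carotid arteries, without their adventitia, were taken 28 days after ligation at 4 to 5 months of age from wild type littermates (control, 4967 cells) and from Trf2T188A mice (5392 cells), with no reporter. TRF2 is a protein of the telomere cap, and the mutant form was expressed from a minimal SM22a promoter, which per the study's methods stays active when VSMCs change phenotype. Terf2 RNA had a mean of 0.189 and 0.180 UMIs per 10000 in ApoE-/- and Trf2T188A/ApoE-/- plaque cells, and of 0.180 and 0.164 in control and Trf2T188A ligation cells. These values do not separate the transgene from the mouse gene and do not check the labels.

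Values are UMIs of a gene per 10000 UMIs of the cell, averaged over cells. Groups were compared by the log2 ratio of these means with 1 added to each. A gene is called higher or lower where the ratio passed 0.25 in that direction. Adding 1 draws the ratios of genes with low means towards 0, so such genes pass only at large fold differences. Shares over all genes and ranks among them were not matched to the levels of the 10 genes. An abundant gene such as Eln passes more easily than a gene with a low mean. The 95% intervals come from UMI counts and cover counting error only. With 1 library per genotype there was no replicate, so no test between genotypes could be made and no p-value is given; genotype, animal and library cannot be told apart. The number of mice behind a library is not given in the sources used here. Libraries held 24064570 to 67426588 UMIs, with medians of 22765.5 and 24377 UMIs per cell in plaque and 8631 and 11153 in ligation. The cell with the fewest genes had 1531 in the ApoE-/- and 1056 in the Trf2T188A/ApoE-/- library, which had been filtered with different minimums. The ligation libraries shared 10 cell barcodes and the plaque libraries 0.

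The genes lie on several chromosomes (GRCm38). Eln is on chromosome 5 (134702593 to 134747323, minus strand), as is Emilin1 (30913402 to 30921277, plus strand). Fbln2 (91212455 to 91272540, plus strand) and Mfap5 (122505845 to 122529290, plus strand) are on chromosome 6. Fbln1 is on chromosome 15 (85205949 to 85286535, plus strand), Fbln5 on chromosome 12 (101746565 to 101819055, minus strand) and Fbn1 on chromosome 2 (125300594 to 125507993, minus strand). Loxl1 is on chromosome 9 (58287738 to 58313186, minus strand) and Mfap4 on chromosome 11 (61485431 to 61488900, plus strand).

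Upstream windows of 250 bases (RefSeq, GRCm38.p6) were matched for 5 of the 10 genes. Those of a pair of fibulins are shown because their RNA levels were unlike each other: Fbln5 was the gene that followed Eln most closely over ligation cells, whereas Fbln1 was close to absent there. RefSeq lists 2 starts for each of them, and the first listed is printed. For Fbln5 it is chr12:101819120-101819369 on the minus strand, and for Fbln1 chr15:85205699-85205948 on the plus strand. Capitals mark GC boxes (GGGCGG on either strand, CCGCCC as read here) and E-boxes (CANNTG).
Fbln5: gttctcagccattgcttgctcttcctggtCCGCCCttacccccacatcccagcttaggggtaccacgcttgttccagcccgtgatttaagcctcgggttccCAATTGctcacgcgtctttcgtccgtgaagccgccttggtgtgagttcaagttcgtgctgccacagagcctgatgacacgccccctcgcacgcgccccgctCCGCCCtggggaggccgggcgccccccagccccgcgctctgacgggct
Fbln1: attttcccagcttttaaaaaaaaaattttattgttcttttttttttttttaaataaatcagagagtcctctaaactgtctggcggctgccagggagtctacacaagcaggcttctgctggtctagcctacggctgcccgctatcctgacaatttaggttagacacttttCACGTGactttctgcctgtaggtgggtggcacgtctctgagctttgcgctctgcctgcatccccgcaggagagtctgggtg
The printed Fbln5 window was 65.2% G or C and held 2 GC boxes and 1 E-box, and its longest run of A or T was 3 bases. The printed Fbln1 window was 46.4% G or C, held 1 E-box and no GC box, and had an A or T run of 14 bases. The window at the second start had 1 GC box and 2 E-boxes for Fbln1 and 0 of each for Fbln5, so which of both genes has more GC boxes depends on the start taken. Over all 32851 windows of this length, 32.7% held a GC box and 66.2% an E-box. None of these windows held a TATA box (TATAAA, in 12.4% of windows), an AP-1 motif (TGANTCA, in 6.75%) or a CArG box (in 1.47%), which is the site of serum response factor. These matches describe letters and not bound sites.

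Cells were grouped by clustering from which these genes and 42 further elastic fibre genes had been left out. In plaques the classes were contractile-like, fibromyocyte-like (VSMCs with matrix genes such as Lum, Spp1 and Fn1), chondrocyte-like (Col2a1, Chad, Acan), complement and acute-phase (C3, Lcn2), and classes called by their genes. In ligated arteries a contractile Sparcl1 Rbp4 class, an Igfbp2 Postn class and a Gdf10 Ecrg4 Lum class held nearly all cells, beside small interferon, endothelial-like and immune-like classes. Because each class was formed from these same cells, differences between classes are described without a test. A fibroblast-like plaque class had 34 ApoE-/- cells and 1 Trf2T188A/ApoE-/- cell and was not compared.

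Eln was widely expressed among VSMC classes but differed strongly between them, and it was higher in the Trf2T188A library of both experiments. Over all plaque cells 3 of the 10 genes were higher with the transgene, against 0.57% of all genes, namely Eln (0.51), Fbln5 (0.28) and Lox (0.27), and none was lower, against 0.247%. Over all ligation cells 3 were higher, against 0.837%, namely Eln (0.63), Mfap5 (0.37) and Mfap4 (0.31), and none was lower, against 0.255%. These sums mix classes in different shares, such as 40.5% and 34.0% Igfbp2 Postn cells in control and Trf2T188A. In ligated arteries mean Eln was lowest among the 3 large classes in contractile Sparcl1 Rbp4 cells, with 9.003 UMIs per 10000 in control and 12.3 in Trf2T188A cells. It was 26.4 and 53.6 in Gdf10 Ecrg4 Lum cells, and 53.5 and 96.5 in Igfbp2 Postn cells. Interferon cells had 19.0 and 23.4, endothelial-like cells 3.56 and 7.91, and immune-like cells 2.90 and 6.23. The order of the 6 classes was the same in both libraries, and neighbouring classes had separate counting intervals except endothelial-like and immune-like cells in the control. Igfbp2 Postn cells were not poor in contractile RNA, since Acta2, which encodes smooth muscle actin, had means of 209.5 and 227.7 against 170.1 and 179.8 in contractile cells.

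In plaques Eln ranged less among VSMC classes and was nearly lost in chondrocyte-like cells. Contractile-like cells had means of 13.0 in ApoE-/- and 16.95 in Trf2T188A/ApoE-/-, Sparcl1 Tppp3 cells 13.3 and 15.8, and Pln Sncg Notch3 cells 9.81 and 16.8. Itih4 Wnt16 Fgl2 cells had 18.5 and 24.5, Dmd Nav2 Slit3 cells 24.7 and 34.9, and Adamtsl1 Mdga2 Bmpr1b cells 24.5 and 39.7. Fibromyocyte-like cells had 17.8 and 22.9, complement and acute-phase cells 9.91 and 11.5, and chondrocyte-like cells 0.550 and 3.04. Dmd Nav2 Slit3 and Adamtsl1 Mdga2 Bmpr1b cells were the highest in both libraries and chondrocyte-like cells the lowest. Dmd Nav2 Slit3 cells were shallow, with medians of 9820 and 8025 UMIs against 21589 and 24158 in contractile-like cells, and at equal depth, which left out 46.8% and 50% of them, their Eln ratio over contractile-like cells was 0.73 and 1.1. Among the 8 neighbouring pairs in this order, counting intervals overlapped for 4 in ApoE-/- and 2 in Trf2T188A/ApoE-/-.

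**Figure D1:**
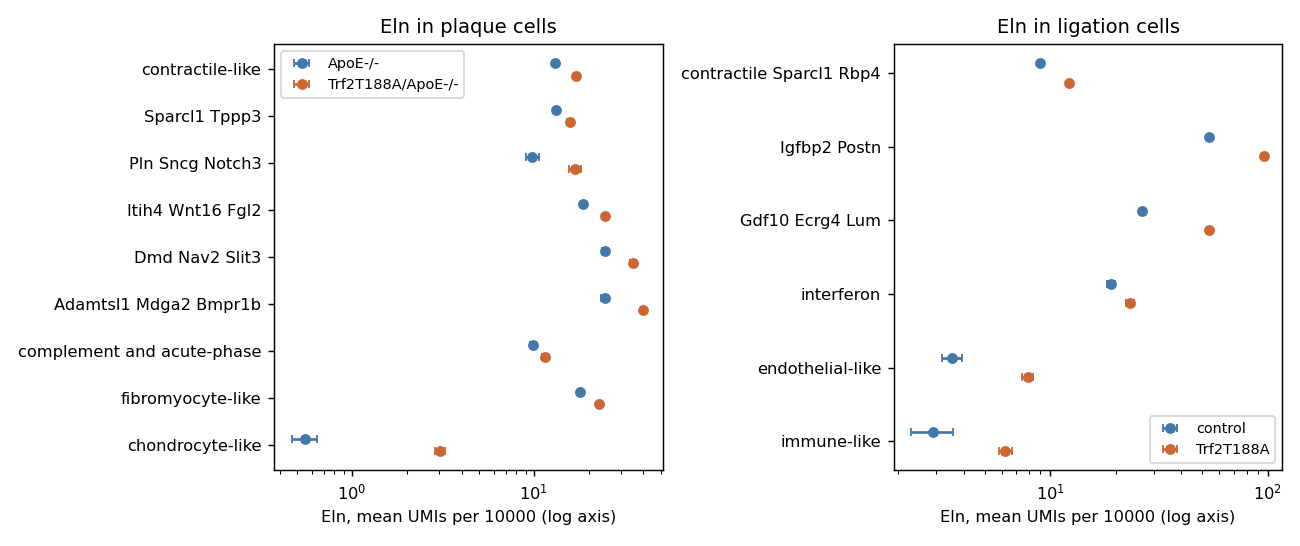
Mean Eln per class (UMIs per 10000, log axis) in plaque cells (left) and ligation cells (right); blue points are ApoE-/- or control, orange points the Trf2T188A libraries, and bars are 95% counting intervals. The orange point lies to the right of the blue one in every class shown, and Igfbp2 Postn cells reach 96.5.

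The mean hid a wide spread over cells. In control Igfbp2 Postn cells the 10th centile, median and 90th centile of Eln were 2.81, 19.1 and 144.2 UMIs per 10000, and in Trf2T188A cells they were 14.4, 55.5 and 232.8, so that each of these points lay higher. Gdf10 Ecrg4 Lum cells went from 4.06, 17.7 and 55.3 to 8.85, 37.2 and 120.0 in the same order. Contractile Sparcl1 Rbp4 cells went from 1.04, 5.74 and 20.5 to 2.55, 9.02 and 25.0. In these 3 classes each of the 3 points was higher in the Trf2T188A library.

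Fibromyocyte-like plaque cells differed from this pattern. Their centiles were 0.139, 5.75 and 44.5 in ApoE-/- and 0, 3.63 and 75.9 in Trf2T188A/ApoE-/- cells, so that the median was lower and the upper end higher with the transgene. The 10% of cells with the most Eln held 58.0% of the Eln UMIs in ApoE-/- and 71.8% in Trf2T188A/ApoE-/-, against 29.1% and 33.8% in contractile-like cells. Cells with no Eln UMI made up 8.81% and 20% of fibromyocyte-like cells at full depth, where the medians were 35165 and 28436 UMIs. With cells thinned to 8000 UMIs, which left out 3.77% and 12.3% of them, an Eln UMI was found in 73.2% (65.5 to 80.0%) and 73.7% (64.6 to 81.5%). Among the cells kept, no difference in the share with Eln was detectable at equal depth. Cells with fewer UMIs are not covered by this comparison.

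**Figure D2:**
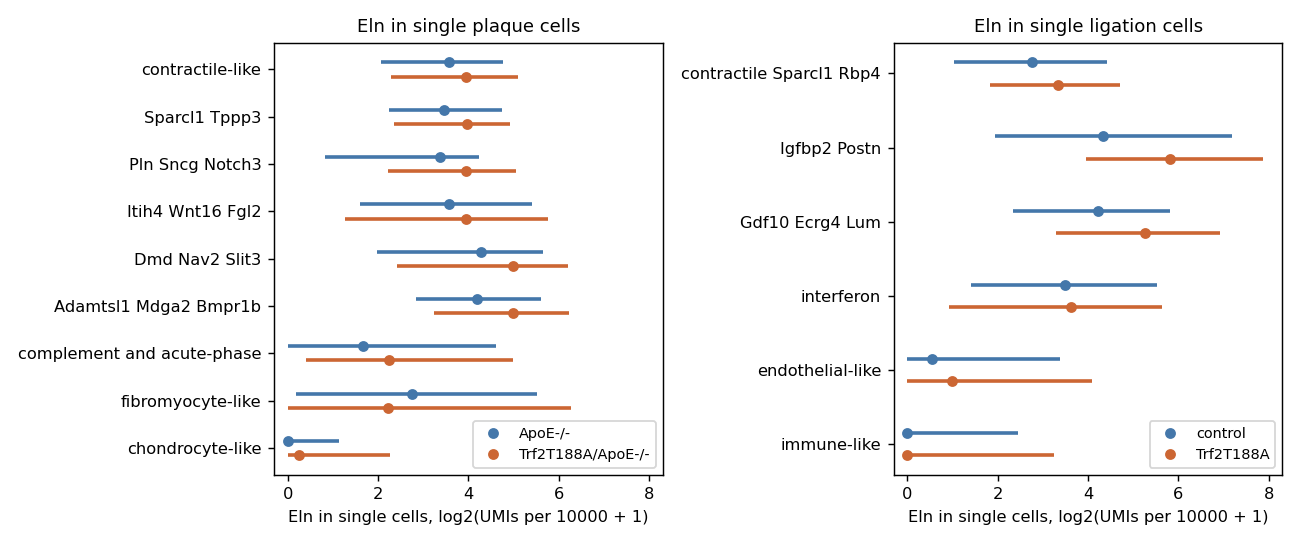
Eln in single cells as log2(UMIs per 10000 + 1), for plaque (left) and ligation (right); points are medians and lines run from the 10th to the 90th centile of cells, blue for ApoE-/- or control and orange for Trf2T188A. In Igfbp2 Postn and Gdf10 Ecrg4 Lum cells the median and both ends lie higher in orange, whereas in fibromyocyte-like cells it is longer at both ends.

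The first question was whether the partners of Eln follow it from contractile to modulated cells within a library. In Igfbp2 Postn cells of ligated arteries 7 of the 10 genes were higher than in contractile cells and 1 was lower, in each library. Over all genes tested 2.37% were higher and 2.47% lower in the control, and 2.87% and 3.13% in Trf2T188A. The median of the 10 genes was 0.48 in control and 0.72 in Trf2T188A cells, against -0.013 and -0.021 over all genes.

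Eln led this difference, with log2 ratios of 2.45 in control and 2.88 in Trf2T188A. The microfibril protein gene Mfap5 followed with 1.03 and 1.21. Fbln5, whose protein binds elastin and lysyl oxidases, had 0.91 and 1.4, and Lox, the lysyl oxidase gene, had 0.83 and 1.44. Fbn1, which encodes the microfibril protein fibrillin-1, Loxl1, a lysyl oxidase needed for elastin renewal, and Fbln2 were also higher, with ratios from 0.25 to 0.53 in control and from 0.64 to 0.79 in Trf2T188A. Mfap4, whose protein binds elastin and fibrillin-1, went the other way, with -0.85 and -0.45, from means of 2.70 and 2.86 in contractile cells to 1.06 and 1.83. In this class a majority of the genes were higher with Eln, and Mfap4 was not.

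Gdf10 Ecrg4 Lum cells had 6 genes higher and 1 lower in each library, against 5.7% and 5.24% of all genes in control and 4.88% and 5.49% in Trf2T188A. Eln had log2 ratios of 1.45 and 2.04, Lox of 0.85 and 1.25, Fbln5 of 0.78 and 1.07, and Fbn1 of 0.56 and 0.80. Emilin1, which encodes a glycoprotein at the interface of elastin and microfibrils, was higher here, with 0.35 and 0.49. Mfap4 was again lower, with -0.84 and -0.53. Endothelial-like cells had 8 genes lower in control and 6 in Trf2T188A, against 13.9% and 12.8% of all genes. There Fbln2 was the exception, with ratios of 2.02 and 2.11 and means of 4.35 and 4.44. Fbln1 was close to absent from ligated arteries, with means over all cells of 0.0107 and 0.0198.

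In plaques the genes split. Fibromyocyte-like cells had 6 genes higher and 1 lower in ApoE-/-, against 8.62% and 8.08% of all genes, and 7 higher and 2 lower in Trf2T188A/ApoE-/-, against 8.29% and 10.7%. Fbln2 stood out with log2 ratios of 1.99 and 1.48, from means of 0.101 and 0.111 in contractile-like cells to 3.38 and 2.10. Fbn1 had 1.12 in each library, Lox 0.93 and 0.60, and Fbln5 0.65 and 0.62. Mfap4 was lower by far, with -2.04 and -1.97. Eln had 0.43 and 0.41, but these ratios turned to -0.66 and -1.19 as differences of mean log values, which weigh the few cells with very high Eln less.

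Chondrocyte-like cells had 1 gene higher and 6 lower than contractile-like cells in each library, against 9.22% and 16.7% of all genes in ApoE-/- and 9.53% and 16.5% in Trf2T188A/ApoE-/-. Eln (-3.18 and -2.15), Mfap4 (-2.78 and -2.35), Mfap5 (-1.91 and -1.64), Loxl1 (-1.21 and -1.08) and Fbln5 (-0.90 and -0.73) were among the lower genes. Emilin1 was the gene that was higher, with 0.76 and 0.96 and means of 2.75 and 3.24. Here low Eln went with low levels of most partners.

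Other plaque classes gave further combinations. Complement and acute-phase cells had 7 genes higher and 3 lower in each library, against 9.16% and 8.12% of all genes in ApoE-/- and 9.32% and 8.15% in Trf2T188A/ApoE-/-. Eln was among the lower genes (-0.36 and -0.52) while Fbln1, a fibulin of many basement membranes and elastic fibres, was higher (1.78 and 1.23). Adamtsl1 Mdga2 Bmpr1b cells had 6 genes higher and 1 lower in ApoE-/-, against 9.98% and 5.76% of all genes, and 7 higher and none lower in Trf2T188A/ApoE-/-, against 7.46% and 4.63%. There Fbln5 (1.25 and 1.26), Fbln1 (1.12 and 1.39), Mfap5 (0.98 and 1.23) and Eln (0.86 and 1.18) were high together. Pln Sncg Notch3 cells had no gene higher, against 6.34% and 6.54% of all genes, and 7 and 4 lower, against 4.07% and 4.37%, led by Mfap4 (-2.27 and -2.25) and Mfap5 (-1.45 and -1.51). Itih4 Wnt16 Fgl2 cells had 8 and 7 genes higher, against 3.15% and 3.59%, and none lower, against 2.04% and 2.39%, with Lox (0.75 and 0.81) and Fbln5 (0.54 and 0.67) ahead of Eln (0.48 and 0.51). Dmd Nav2 Slit3 cells had 3 higher in each library, against 18.7% and 20.4%, and 2 lower, against 14.1% and 17.2%, where Eln (0.87 and 0.9992) and Fbn1 (0.77 and 0.84) were higher while Mfap4 (-1.28 and -1.03) was lower. Sparcl1 Tppp3 cells had none higher, against 2.11% and 2.52%, and 1 lower, against 0.765% and 0.973%.

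**Figure D3:**
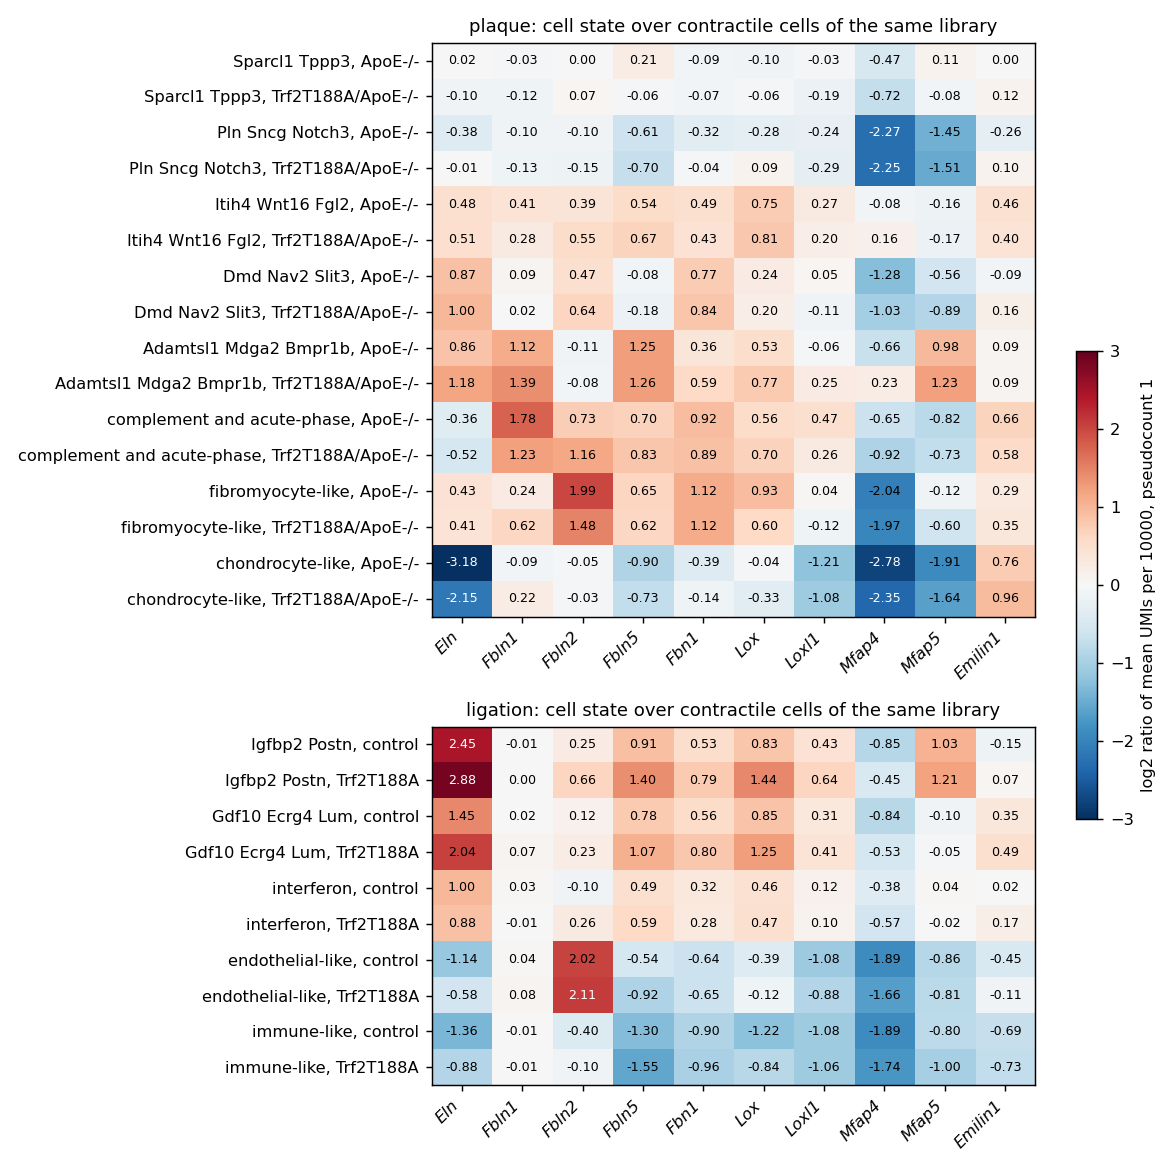
Log2 ratio of each gene in a class over the contractile cells of the same library (colour and printed value, pseudocount 1), for plaque (top) and ligation (bottom), with 1 row per class and library. Red cells are higher and blue cells lower; the Eln column is red in Igfbp2 Postn and Gdf10 Ecrg4 Lum cells and blue in chondrocyte-like cells, while the Mfap4 column is blue in most rows.

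The second question was whether the genes differ together between genotypes within a class. Eln had a log2 ratio of Trf2T188A over control above 0 in all 9 plaque and all 6 ligation classes compared, and passed 0.25 in 7 and 6 of them. Under 1 alternative each the sign turned in 3 of these 15 classes, to -0.25 in fibromyocyte-like, -0.06 in interferon and -0.38 in endothelial-like cells. No partner did so as widely. In ligation Mfap5 and Loxl1 were above 0 in 6 of 6 classes, Loxl1 only at 0.014 to 0.24. Mfap5 was called higher in 5 classes, Lox and Mfap4 in 3 each, Fbln2 in 2 and Fbln5 in 1. Fbln5 was called lower in 2. Fbn1, Loxl1 and Emilin1 were called in none of the 6. Nor was Fbln1, but its class means of 0 to 0.065 were too low for any ratio to pass the limit. In plaques Lox and Mfap4 were called higher in 4 of 9 classes each, Fbln5 and Fbln1 in 3, Loxl1 and Mfap5 in 2, and Fbln2, Fbn1 and Emilin1 in 1. Fbln1, Fbln2 and Mfap5 were each called lower in 1.

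Igfbp2 Postn cells had the fullest shared difference in ligation, with 6 genes higher and none lower, against 1.49% and 0.816% of all genes. The median of the 10 genes was 0.39, against -0.009 over all genes. Eln had a log2 ratio of 0.84 (0.83 to 0.85), the 5th highest of 7962 detected genes. Lox went from a mean of 4.24 to 6.63 (0.54, 0.51 to 0.58), Mfap5 from 3.41 to 5.31 (0.52, 0.48 to 0.55), Mfap4 from 1.06 to 1.83 (0.46, 0.42 to 0.51) and Fbln5 from 16.4 to 22.6 (0.45, 0.42 to 0.47). Fbln2 went from 0.575 to 0.990 (0.34, 0.29 to 0.38). Fbn1 and Loxl1 had 0.24 each and Emilin1 0.06. Fbln1 had 0.01 at means of 0.00326 and 0.012, a level too low for a call. Mfap4, which was lower here than in contractile cells, was thus on the side of Eln between genotypes.

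Gdf10 Ecrg4 Lum cells had 4 genes higher and none lower, against 1.05% and 0.697% of all genes. Eln had 0.997 (0.98 to 1.02), the 2nd highest of 8316 genes, followed by Mfap5 (0.39), Mfap4 (0.37) and Lox (0.33). Fbln5 had 0.24 and Fbn1 0.23, just under the limit. At 0.5 times the clustering resolution the class of this name held 3339 Trf2T188A and 2764 control cells, against 1005 and 1140 here. In that larger class 2 genes were higher. With a pseudocount of 0.1, 7 were higher in the class as reported.

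In contractile Sparcl1 Rbp4 cells only Eln and Mfap5 were higher and none of the 10 was lower, against 0.792% and 0.18% of all genes. Eln had 0.41 (0.38 to 0.44), the 15th highest of 8338 genes, and Mfap5 went from a mean of 1.15 to 1.73 (0.34). The other 8 genes had ratios from -0.15 to 0.06, and the median of the 10 was -0.01. Eln was higher here without most of its partners. With a pseudocount of 0.1, 1 gene was lower.

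The small ligation classes gave values that moved with the settings. Interferon cells (112 control and 60 Trf2T188A cells) had 3 genes higher and none lower, against 2.93% and 3.46% of all genes: Fbln2 0.29, Eln 0.29 and Mfap5 0.28. Eln became -0.06 when elastic fibre genes were allowed to shape the clusters, and Mfap5 became -0.0016 at equal depth. Endothelial-like cells had 3 genes higher and 1 lower, against 3.58% and 4.32%, with Eln at 0.97, Mfap5 at 0.40 and Fbln5 at -0.43. The third higher gene there, Mfap4, had 0 UMIs in control and 30 in Trf2T188A cells. Without the 5% of cells with the highest doublet scores Eln there was -0.38 and Mfap5 -0.11, and the summed level of smooth muscle markers in this class was 24.1 in control and 40.9 in Trf2T188A cells. The part of smooth muscle RNA in that difference was not tested further. Immune-like cells (20 and 58 cells) had Eln at 0.89, Lox at 0.31 and Fbln5 at -0.30, with 2 genes higher and 1 lower against 9.29% and 14.5%. The Eln ratio there ranged from 0.35 to 1.54 over alternatives. The 2 control and 6 Trf2T188A cells with the most Eln held 95.1% and 96.2% of its UMIs in this class, and 80% and 53.4% of the cells had none.

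In plaques the contractile-like cells had 1 gene higher, Eln, and none lower, against 0.296% and 0.198% of all genes. Its ratio was 0.36 (0.31 to 0.40), the 9th highest of 10122 genes, while Fbln5 had 0.21 and Lox 0.20, and 2 genes were higher at equal depth, at 0.5 times the resolution or with a pseudocount of 0.1. Itih4 Wnt16 Fgl2 cells had 4 genes higher and none lower, against 0.851% and 0.444%: Eln 0.39, Fbln5 0.34, Mfap4 0.30 and Lox 0.25. Sparcl1 Tppp3 cells had none, against 0.556% higher and 0.419% lower, with Eln at 0.23. Dmd Nav2 Slit3 cells had 2 higher, Eln (0.48) and Mfap4 (0.30), and none lower, against 3.97% and 4.73%. Without cells holding Ptprc, Pecam1, Cdh5 or Dpt the Eln ratio of this class was 0.235, under the limit, and at equal depth it was 0.75. The first of these settings left out 773 of 1502 ApoE-/- and 447 of 929 Trf2T188A/ApoE-/- plaque cells.

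Adamtsl1 Mdga2 Bmpr1b cells, 42 and 41 in number, had 6 genes higher and none lower, against 3.31% and 4.79% of all genes. Mfap4 went from a mean of 3.68 to 7.97 (0.94, 0.77 to 1.12) and Eln had 0.68 (0.59 to 0.77). Loxl1 and Lox had 0.45 each, Mfap5 0.36 and Fbln1 0.31. Pln Sncg Notch3 cells (39 and 23) had 4 higher and none lower, against 5.58% and 4.97%, with Eln at 0.72, Lox at 0.58, Emilin1 at 0.35 and Fbn1 at 0.26, and the interval of Fbn1 reached -0.03.

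Fibromyocyte-like cells had 2 genes higher and 2 lower, against 1.12% and 1.86% of all genes. With clusters made at 0.5 times the resolution, the class of this name held 216 Trf2T188A/ApoE-/- and 273 ApoE-/- cells, against 130 and 159 here. In that larger class 2 genes were higher and 0 lower, with Fbln2 at -0.18 and Mfap5 at -0.13. Fbln2 went from a mean of 3.38 to 2.10 (-0.50, -0.60 to -0.40) and Mfap5 from 2.87 to 2.001 (-0.37, -0.46 to -0.28). Eln had 0.34 (0.29 to 0.40), which was -0.25 as a difference of mean log values. Fbln1 had 0.42 but turned negative in 4 alternatives, to between -0.15 and -0.06. Among them was the one without cells that held a UMI of Ptprc, Pecam1, Cdh5 or Dpt. It kept only 52 ApoE-/- and 48 Trf2T188A/ApoE-/- cells of this class. Acta2 was also lower, at 25.6 and 18.1 UMIs per 10000. The summed level of 8 fibroblast markers was 11.9 and 14.1 in these cells, and its part in the difference was not tested.

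Complement and acute-phase cells had 3 genes higher and 1 lower, against 1.59% and 1.18%: Fbln2 (0.44), Lox (0.35) and Fbln5 (0.34) against Fbln1 (-0.51). Eln was under the limit at 0.19. A single ApoE-/- cell held 747 Eln UMIs, and without the cell with the most Eln in each library the ratio was 0.56. Over all alternatives it ranged from 0.03 to 1.13.

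Chondrocyte-like cells had 6 genes higher and none lower, against 3.03% and 1.96% of all genes, at low levels for most. Without cells under 2000 genes, which kept 57 of 63 Trf2T188A/ApoE-/- cells and all 81 ApoE-/- cells, 2 genes were higher, Eln at 1.34 and Fbln1 at 0.38. Eln had 1.38 (1.23 to 1.54), but 1 Trf2T188A/ApoE-/- cell held 784 of the 1018 Eln UMIs. Without the cell with the most Eln in each library the means were 0.39 and 1.31 and the ratio 0.74 (0.51 to 0.96). Other called genes rested on few UMIs, such as 9 and 79 for Fbln1, 21 and 71 for Mfap4 and 45 and 68 for Mfap5. Fbln5 had 0.38, which became -0.03 at equal depth, where 3 genes were higher. The summed level of fibroblast markers was 12.4 in ApoE-/- and 23.4 in Trf2T188A/ApoE-/- cells of this class, and its part was not tested.

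**Figure D4:**
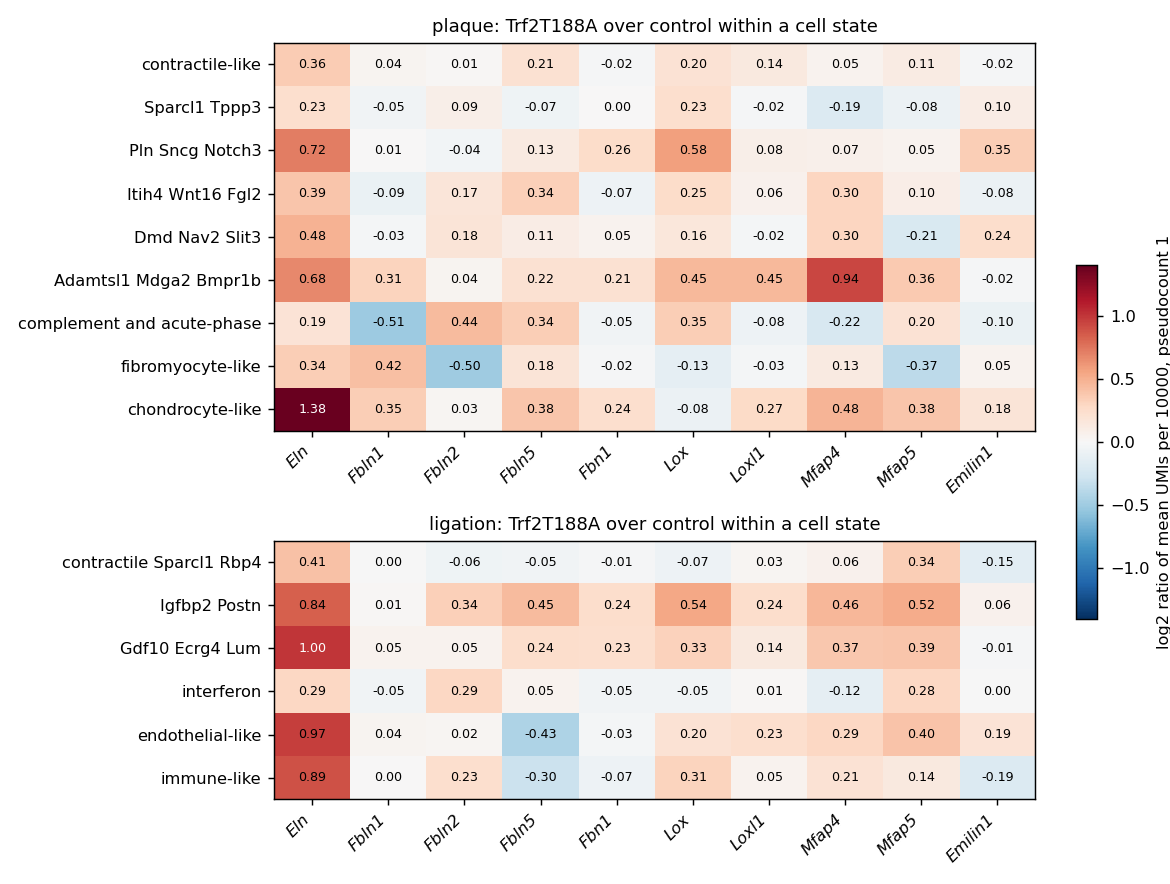
Log2 ratio of Trf2T188A over control within each class (colour and printed value, pseudocount 1), for plaque (top) and ligation (bottom), with genes in columns. The Eln column is red in every row, from 0.19 to 1.38, whereas the other columns mix red and blue.

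The third question was whether the genes go together from cell to cell. Spearman's rho was computed over cells thinned to 8000 UMIs in plaque (2217 cells) and 5000 in ligation (9880 cells). It is a description, because cells of a library share animals and preparation, and it has no p-value. Eln was closest to Fbln5 over ligation cells, with 0.575 (0.485 in control and 0.648 in Trf2T188A). Lox had 0.490 (0.390 and 0.571), Mfap5 0.347, Fbn1 0.331 and Loxl1 0.282. Emilin1, Mfap4 and Fbln1 were between 0.009 and 0.046.

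Part of this stayed within classes. In Igfbp2 Postn cells Eln had 0.429 and 0.313 with Fbln5, 0.418 and 0.419 with Lox, and 0.435 and 0.484 with Mfap5, in control and Trf2T188A. Mfap4, with almost no relation over all ligation cells, had 0.254 and 0.281 within this class. Tagln, a contractile gene, had -0.286 and -0.263 with Eln there. In Gdf10 Ecrg4 Lum cells Fbln5 had 0.418 and 0.501, and in contractile Sparcl1 Rbp4 cells 0.189 and 0.283.

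In plaque cells no gene reached the values that Fbln5 and Lox had with Eln in ligation. Mfap5 had 0.313, Loxl1 0.3, Fbln5 0.298, Lox 0.296 and Mfap4 0.275, while Emilin1 had -0.073 and Fbln1 -0.105. Within fibromyocyte-like cells Fbln5 had 0.356 in ApoE-/- and 0.406 in Trf2T188A/ApoE-/-. In that class Eln also went with contractile genes, with 0.444 and 0.372 for Tagln and 0.416 and 0.303 for Acta2, where contractile-like cells had -0.134 and -0.169 for Tagln. The sign of the relation between Eln and Tagln thus differed between these classes in both libraries.

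Among all 45 pairs of the 10 genes, 38 were positive in plaque with a median of 0.107, from -0.144 for Fbln2 with Mfap4 to 0.327 for Mfap4 with Mfap5. In ligation 42 were positive with a median of 0.064, and the lowest was -0.068 for Mfap5 with Emilin1. At full depth, which differs between cells, the medians were 0.175 in plaque and 0.105 in ligation. The typical pair was thus weak in both experiments by this measure. The ligation pairs include those of Fbln1, which was close to absent there.

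**Figure D5:**
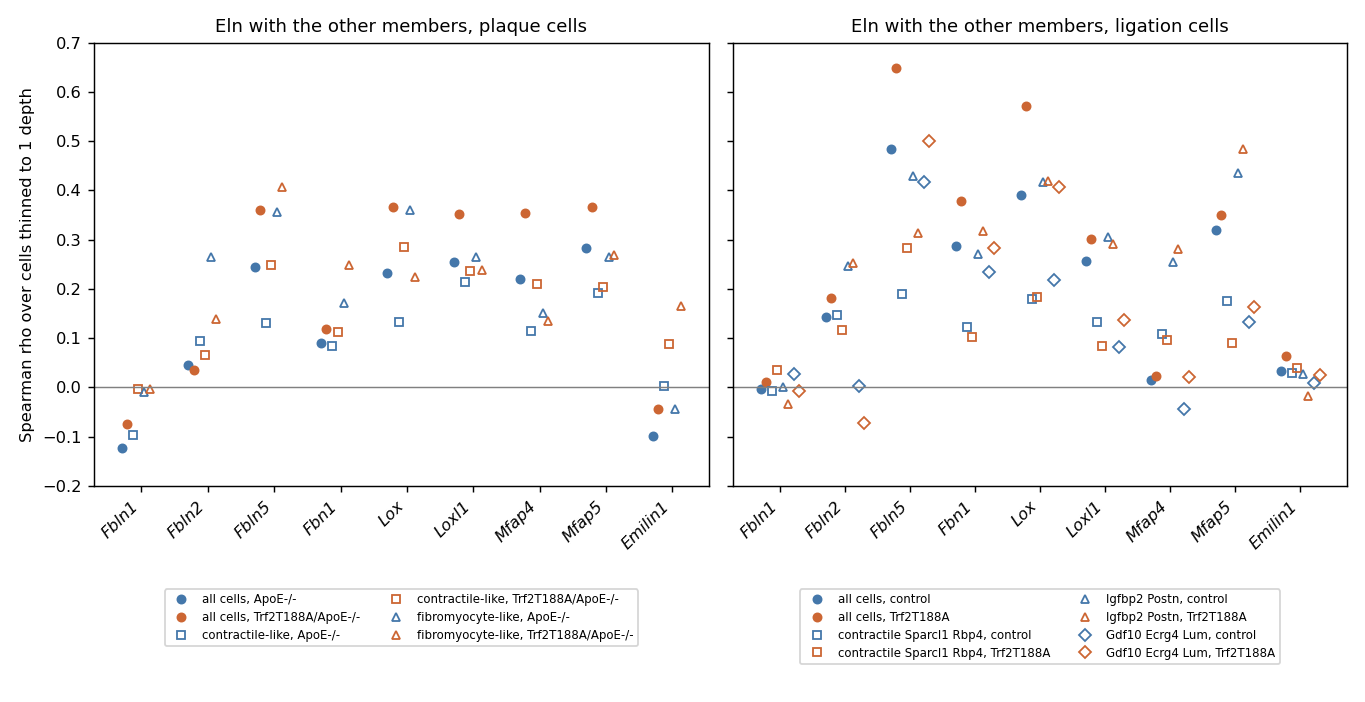
Spearman's rho of Eln with each other gene over cells thinned to 1 depth, in plaque (left) and ligation (right); colours are libraries (blue ApoE-/- or control, orange Trf2T188A), filled circles are all cells and open symbols single classes. Fbln5 and Lox are highest over ligation cells, and Fbln1 and Emilin1 lie near 0 or below.

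Over the class means of ligation, 12 points from 6 classes in 2 libraries, the genes most like Eln by Pearson's r were Notch3 (0.953), Rgs5 (0.952), Serf1 (0.95), Lox (0.947) and Cdkn2b (0.945). Lox was thus 4th of 11349 genes, and Fbn1 (0.925) and Loxl1 (0.922) were 12th and 14th. Mfap5 had 0.908, Fbln5 0.907, Emilin1 0.678, Mfap4 0.603 and Fbln2 -0.175. Over the 18 class means of plaque the closest genes were Nmt1 (0.936), Hpcal1 (0.861), Gng12 (0.856), Pawr (0.853) and Ntn1 (0.852). Loxl1 was 25th of 13064 genes with 0.797, Mfap5 had 0.692, Fbln5 0.637, Mfap4 0.579, Fbn1 0.546, Lox 0.545, Fbln2 0.225, Fbln1 0.215 and Emilin1 -0.592. The contractile genes Myh11 (0.637), Tagln (0.627), Acta2 (0.626) and Cnn1 (0.561) had values like those of several partners, and in ligation they had 0.715, 0.748, 0.758 and 0.741. These values describe few points that share libraries. The ligation points include endothelial-like and immune-like cells, with Eln means of 2.90 to 7.91, and r was not computed for VSMC classes alone.

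The 42 further genes of the pathway, which cover microfibril proteins, crosslinking cofactors, elastin-degrading enzymes and their inhibitors, and TGF-beta ligands, were counted in the same way. In Igfbp2 Postn cells 5 of 32 detected genes were higher in Trf2T188A and none lower, against 1.49% and 0.816% of all genes, led by Mmp2, a gelatinase that also cuts elastin (0.33), Ctsl, a cathepsin (0.33), and Vcan, a proteoglycan (0.32). In Gdf10 Ecrg4 Lum cells 2 of 32 were higher, Mmp2 (0.34) and Ctsk (0.30), against 1.05%, and none lower, against 0.697%. In contractile Sparcl1 Rbp4 cells none of 31 passed in either direction, against 0.792% and 0.18%. In plaque contractile-like cells 1 of 31 was higher, Cst3, a cysteine protease inhibitor (0.46), and none lower, against 0.296% and 0.198%. Fibromyocyte-like cells had 3 of 35 higher and 6 lower, against 1.12% and 1.86%, with Ctsk (0.48), Mmp2 (0.36) and Cst3 (0.33) against the inhibitor Timp3 (-0.65), Tgfb2 (-0.51) and Timp1 (-0.44). Chondrocyte-like cells had 4 of 35 higher and 4 lower, against 3.03% and 1.96%, among them Ltbp2 (0.45) and Timp1 (-0.73). Adamtsl1 Mdga2 Bmpr1b cells had the most higher genes, 6 of 34, and 1 lower, against 3.31% and 4.79%. In the other 8 classes 0 to 4 genes were higher, against 0.556 to 9.29% of all genes, and 0 to 3 lower, against 0.419 to 14.5%.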

How the data were processed

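The authors aligned reads to GRCm38 with Cell Ranger (7.0.0 plaque, 6.1.2 ligation), filtered the cells and scaled them to a common total. The deposited signal is linear and gives UMIs per 10000. Since 100.0% of values lay within 0.01 of whole UMIs, UMI counts were recovered. Genes not listed for 1 ligation library were taken as 0 there. Cells were clustered with Seurat 5.3.0 in R 4.3.3 (2000 variable genes, 18 and 17 components, resolutions 0.9 and 0.2, no integration), without the 10 genes and 42 pathway genes, of which 24 in plaque and 27 in ligation would have been variable genes. Cluster names rest on the study's marker genes, with limits (a mean log2 ratio of 0.3 and 3 markers) set after the data were seen, and need not match the study's clusters. Python 3.11.15 was used with scanpy 1.11.5, scipy 1.17.1 and pandas 2.3.3. Shares over all genes used genes detected in at least 10% of cells of either group, while counts of the 10 genes used all 10, of which 8 to 10 passed that limit in plaque classes and 9 in ligation classes. Classes needed 20 cells per library. Thinning left out 92 and 122 plaque and 325 and 154 ligation cells. Scrublet called at most 0.323% of a library's cells, and its calls were not relied on. No doublet was removed, and the 5% highest scores were left out as an alternative. Whether these scores mark doublets was not tested. The code for the ratios was tested on simulated data, which says nothing about spread between animals. The 10 genes, all lists and the comparisons were chosen with earlier results of these data known. Named genes are the 10 genes, pathway genes among the 3 largest differences of either direction and the 5 genes most like Eln, with Acta2, Tagln and Terf2 as references.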

Additional observations from a re-analysis of the deposited data

How the results depend on the processing

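The 150 genotype ratios of the 10 genes had 1570 alternative values. Of these, 1307 stayed within the counting interval of the reported value and 253 moved outside it. A further 10 changed sign from a reported ratio that had passed 0.25. Sign changes of smaller ratios are counted among the 1307 and 253. For Eln alone, 93 of 157 values stayed within the interval, 61 moved outside it and 3 changed sign. For Eln the ranges over alternatives were 0.767 to 1.46 in Igfbp2 Postn, 0.561 to 1.03 in Gdf10 Ecrg4 Lum, 0.37 to 0.574 in contractile Sparcl1 Rbp4, 0.284 to 0.441 in plaque contractile-like cells, 0.301 to 2.27 in chondrocyte-like, 0.0321 to 1.13 in complement and acute-phase, 0.235 to 0.753 in Dmd Nav2 Slit3 and 0.349 to 1.54 in immune-like cells. Of 288 alternative counts of genes higher or lower, 266 stayed within 1.5 times the reported count and 22 did not. These belong to 30 of the reported counts. Those of other classes, such as Adamtsl1 Mdga2 Bmpr1b or complement and acute-phase cells, are not among them. With a pseudocount of 0.1 the genes higher between genotypes numbered 2 in contractile-like and 7 in Gdf10 Ecrg4 Lum cells, 1 was lower in contractile Sparcl1 Rbp4 cells, 2 were higher in Trf2T188A/ApoE-/- chondrocyte-like over contractile-like cells, and 2 were lower in control Igfbp2 Postn over contractile cells. Summed UMIs gave 3 genes higher in chondrocyte-like cells and an Eln ratio of 0.182 for Trf2T188A immune-like over contractile cells (-0.877 as reported). Differences of mean log values gave 0 genes higher in fibromyocyte-like and 2 in chondrocyte-like cells, 3 and 4 lower in fibromyocyte-like over contractile-like cells of ApoE-/- and Trf2T188A/ApoE-/-, and Eln at -0.247 between genotypes and at -0.655 and -1.19 over contractile-like cells. At 0.5 times the resolution 2 genes were higher in contractile-like and 2 in Gdf10 Ecrg4 Lum cells, and 0 were lower in fibromyocyte-like cells. There 2 were lower in ApoE-/- fibromyocyte-like over contractile-like cells, and Fbln1 in fibromyocyte-like cells was -0.145. The Gdf10 Ecrg4 Lum and fibromyocyte-like classes held more cells at that setting than as reported, so these values do not cover the same cells. At 1.5 times the resolution 1 gene was higher in fibromyocyte-like cells and Fbln1 was -0.0636. With elastic fibre genes among the variable genes Fbln1 in fibromyocyte-like cells was -0.0657 and Eln in interferon cells -0.0583. Without cells under 2000 genes 2 genes were higher in chondrocyte-like cells between genotypes and 2 over contractile-like cells in Trf2T188A/ApoE-/-. Thinning gave 2 genes higher in contractile-like and 3 in chondrocyte-like cells, with Fbln5 there at -0.0269 and Mfap5 in interferon cells at -0.00159. Without cells holding Ptprc, Pecam1, Cdh5 or Dpt 1 gene was higher in fibromyocyte-like cells, 2 were lower over contractile-like cells in ApoE-/-, and Fbln1 was -0.144. Without the highest doublet scores Eln was -0.381 and Mfap5 -0.113 in endothelial-like cells. Without the cell with the most Eln in each library, an alternative chosen after seeing the data, 1 gene was higher in fibromyocyte-like cells. The same setting gave 4 higher and 2 lower in complement and acute-phase cells (3 and 1 as reported). It gave 5 higher in Adamtsl1 Mdga2 Bmpr1b cells (6 as reported), 2 higher in interferon cells (3) and 0 lower in immune-like cells (1). The causes were not tested. No paired analysis was possible because each group had 1 library, which also leaves no replicate to leave out. UMI counts were few for Fbln1 in ligation and for several genes in chondrocyte-like cells, which limits the precision there.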
